A study of Mus musculus with 6 samples.

Results

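The genes described here encode the classical guidance cues and their receptors: ephrins and Eph receptors, semaphorins, plexins and neuropilins, Slit and Robo proteins, and netrins with their Unc5 receptors. They were taken by symbol, every row whose name belongs to one of these families, which gave 67 of the 23329 genes in the count tables. Gene expression was measured by stranded RNA-seq of poly(A) RNA in primary cultures of mesenchymal cells from the small intestine of C57 mice, 3 of them embryonic (day 14.5 of gestation, written E14.5) and 3 adult, with no age in the labels for the adults. The comparison asks how embryonic and adult gut mesenchyme differ. No genotype or treatment distinguishes the 6 cultures in the labels, though the names of all 6 deposited tables include PBS, which the labels do not tie to a treatment. All were grown in serum with Y27632 and were harvested at passage 2 to 3. Adult gut was scraped free of villi and embryonic gut was cut into pieces before the epithelium was removed, so tissue handling differed between the groups, and no sort was named. These are therefore cultured cells and not fresh tissue, and whether each culture stems from its own animal is not stated. The p-values measure only the spread between these cultures, which may be partly technical.

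Guidance molecules were first described as signals that attract or repel growing axons, and they also act on mesenchyme, vessels and epithelium. Ephrins are membrane-bound ligands that signal at cell contacts, with ephrin-A proteins attached by a lipid anchor and ephrin-B proteins spanning the membrane. Class 3 semaphorins are secreted and mostly bind plexins together with a neuropilin. Slit proteins are secreted ligands of Robo receptors, and netrins are laminin-related proteins, some of which bind DCC, neogenin and the Unc5 receptors. In the gut, B-type ephrins and Eph receptors are known for sorting epithelial cells along the crypt, and netrin and semaphorin cues for steering enteric neural cells and their fibres.

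Gene counts per library lay between 18850224 (adult replicate 2) and 32672370 (E14.5 replicate 1). Levels are given as CPM, each count scaled to a common library size after TMM scaling, and 3 counts in a library correspond to 0.0927 to 0.149 CPM. Mesenchymal markers such as collagen I and III genes summed to 12490 to 24570 CPM in the 6 libraries, and the epithelial marker Epcam did not exceed 0.141 CPM. Krt20 of the same epithelial list was not as low. It measured 61.4, 47.0 and 24.4 CPM in embryonic cultures and 13.4, 9.09 and 13.75 CPM in adult ones (edgeR adjusted p = 0.083). Of the 7 epithelial markers 2 were tested, both with higher values in E14.5. Within the mesenchymal list 7 of 9 genes had negative log2 fold changes (E14.5 over adult), 4 of them without overlap (12% of all tested genes were lower without overlap). Pdgfra of that list, a fibroblast receptor gene, fell (2.47, 3.85 and 4.45 CPM in embryonic cultures, 29.45, 80.95 and 31.75 CPM in adult ones, log2 fold change -3.72, edgeR adjusted p = 0.036). Other cell types differed between libraries. For macrophages and leukocytes the marker sum was 256 CPM in E14.5 replicate 1, 471 in replicate 2 and 2938 in replicate 3, while adult libraries ranged from 25.6 to 207. The endothelial marker sum reached 1927 CPM in adult replicate 2 and 414 in adult replicate 3, with 10.4 to 35.1 elsewhere. The mesothelial marker sum was 859 CPM in E14.5 replicate 2, 189 and 169 in the other embryonic libraries, and 567 to 1540 in the adult ones. In bulk samples, fewer cells of a type and less RNA per cell cannot be told apart.

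With all 6 libraries, the embryonic and adult cultures differed in an Eph receptor, a netrin and a plexin. Epha7, which encodes a receptor for ephrin-A ligands, rose 7.39-fold in E14.5 cultures. Ntn4, the gene for netrin-4, a basement membrane netrin, fell to a level 3.20-fold below that of adult cultures. Plxna4, which encodes a plexin that takes part in class 3 semaphorin signalling, fell, with a 4.72-fold difference. Of the 67 members, 58 passed the filter on low counts, and these 3 passed the test, 1 higher and 2 lower in E14.5 (edgeR quasi-likelihood test, adjusted p under 0.05). Over all 13478 tested genes the same test called 1.08%, with 0.245% higher and 0.838% lower. No member passed it without E14.5 replicate 1, without adult replicate 1 or without adult replicate 3. The log2 fold changes (E14.5 over adult) of the 58 genes ran from -5.48 to 4.40.

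**Figure D1:**
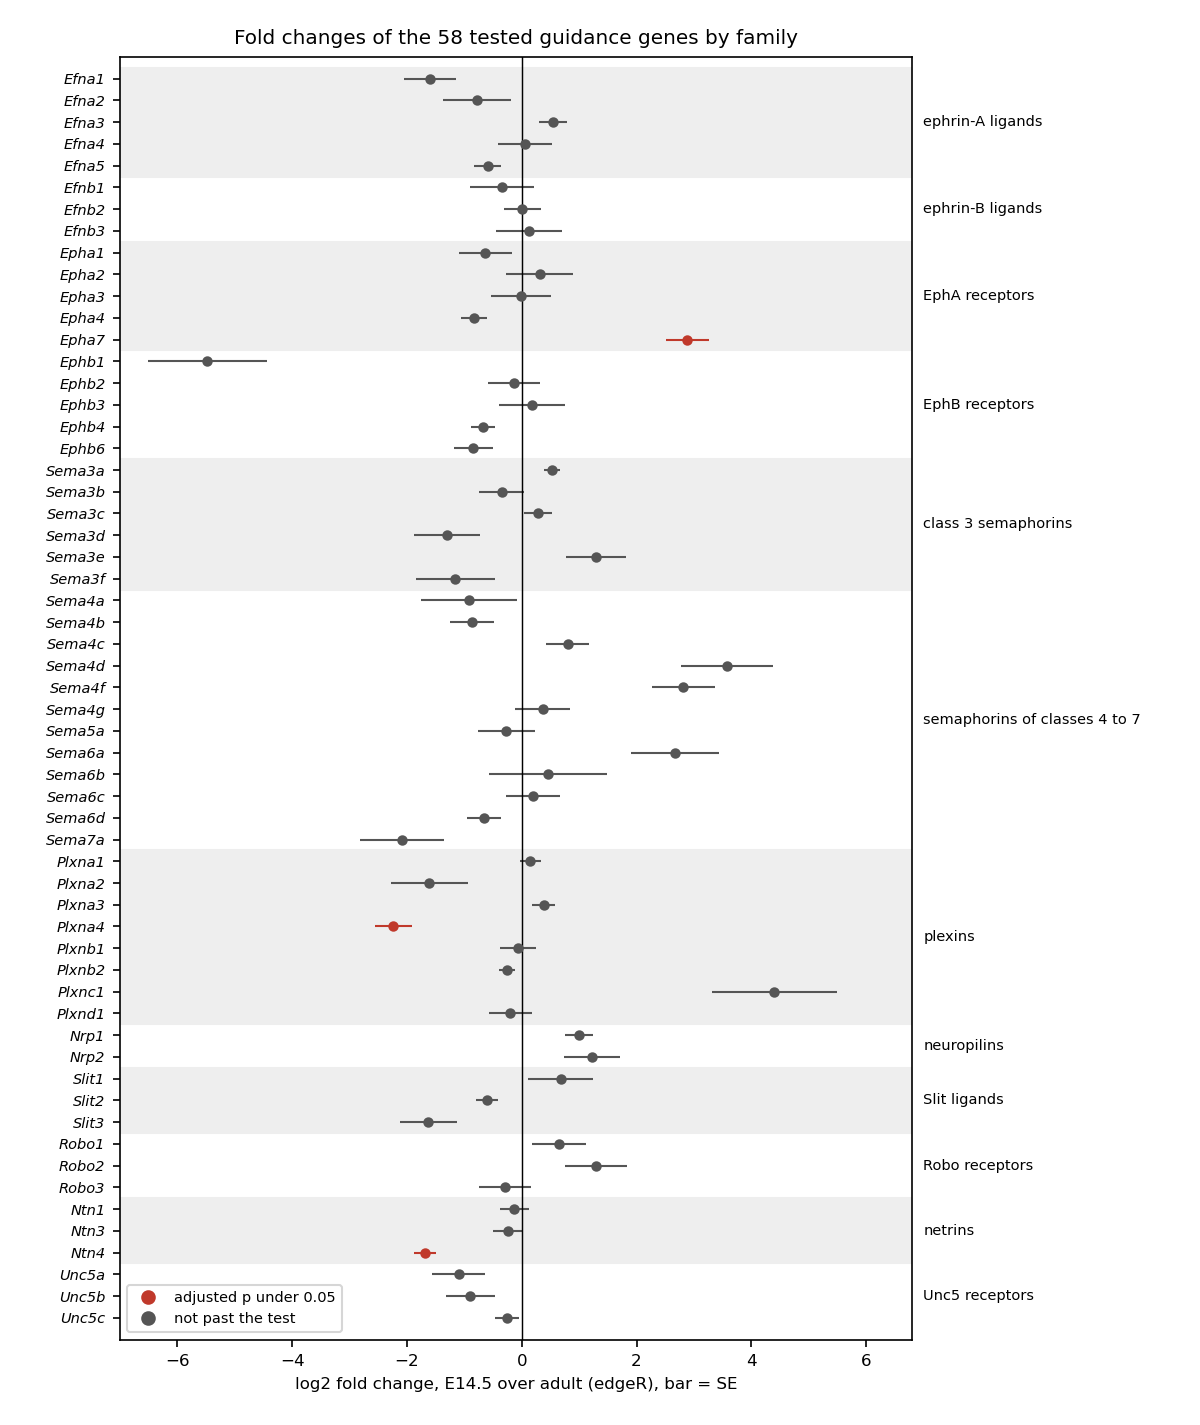
The log2 fold change (E14.5 over adult, with its standard error, SE) is plotted for each of the 58 tested guidance genes, grouped by family. Epha7 lies at 2.89, Plxna4 at -2.24 and Ntn4 at -1.68, the 3 genes past the test, and the widest bars belong to genes such as Plxnc1 and Ephb1 that vary between cultures or have few counts.

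Epha7 measured 34.1, 20.05 and 26.1 CPM in the E14.5 cultures (replicates 1, 2 and 3, an order kept throughout) and 5.035, 3.675 and 2.145 CPM in the adult ones. Every E14.5 culture lay above every adult culture. The means were 26.7 ± 7.04 and 3.62 ± 1.45 CPM (SD, n = 3 each), with a log2 fold change of 2.89 (SE 0.37, edgeR adjusted p = 0.036). Between E14.5 and adult libraries whose titles begin with the same prefix, the log2 difference was 2.76, 2.45 and 3.6. In the GENCODE annotation (GRCm38, the assembly also called mm10) the gene spans bases 28813131 to 28967499 of chromosome 4, plus strand. The call was kept without E14.5 replicate 2 (adjusted p = 0.027), and it was lost without E14.5 replicate 1 (0.118), E14.5 replicate 3 (0.063), adult replicate 1 (0.067), adult replicate 2 (0.096) or adult replicate 3 (0.137).

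Ntn4 measured 74.1, 65.2 and 81.9 CPM in the E14.5 cultures and 242, 183 and 283 CPM in the adult ones. The groups did not overlap, and the E14.5 cultures were close to each other. The means were 73.7 ± 8.36 and 236 ± 50.5 CPM (SD, n = 3 each), with a log2 fold change of -1.68 (SE 0.19, edgeR adjusted p = 0.030). Within title prefixes the log2 difference was -1.71, -1.49 and -1.79. Ntn4 lies on chromosome 10 from 93640681 to 93747207 on the plus strand. It was called without E14.5 replicate 2 (adjusted p = 0.031), E14.5 replicate 3 (0.0496) or adult replicate 2 (0.031), but not without E14.5 replicate 1 (0.118), adult replicate 1 (0.072) or adult replicate 3 (0.137).

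Plxna4 measured 3.78, 5.99 and 8.405 CPM in the E14.5 cultures and 28.55, 34.3 and 23.0 CPM in the adult ones. The lowest adult culture lay well above the highest E14.5 culture. The means were 6.06 ± 2.31 and 28.6 ± 5.62 CPM (SD, n = 3 each), with a log2 fold change of -2.24 (SE 0.33, edgeR adjusted p = 0.041). Its prefix-wise log2 differences were -2.92, -2.52 and -1.45. Plxna4 lies on chromosome 6 from 32144268 to 32588192 on the minus strand. Its call was the least secure of the 3: it was kept without E14.5 replicate 3 (0.043), and lost without E14.5 replicate 1 (0.102), E14.5 replicate 2 (0.055) or adult replicate 1 (0.108), 2 (0.104) or 3 (0.169), and also with upper-quartile scaling (0.052) or library size alone (0.060).

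**Figure D2:**
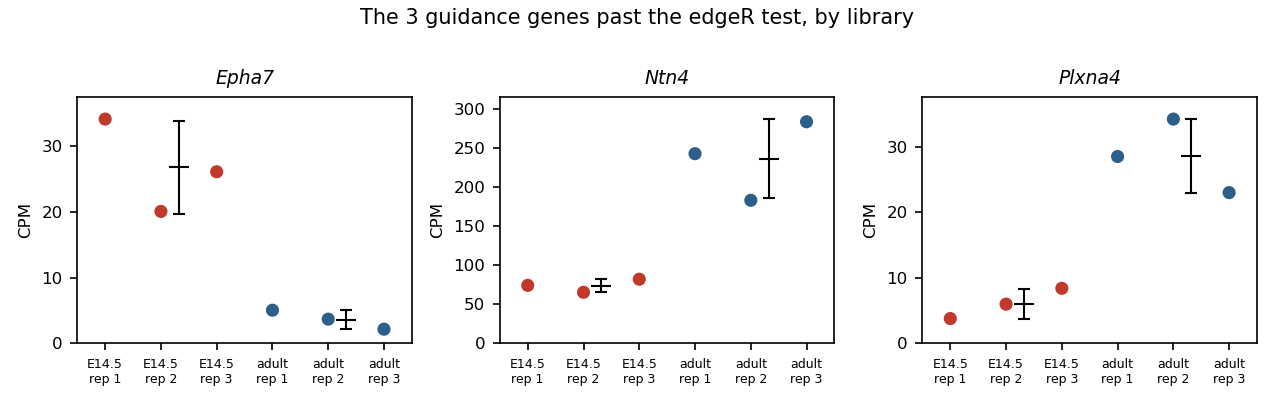
CPM of Epha7, Ntn4 and Plxna4 is plotted for each of the 6 libraries, with each group's mean as a tick and its SD as the error bar. Epha7 lies at 20.05 to 34.1 CPM in E14.5 and at 2.145 to 5.035 CPM in adult cultures, and the other 2 genes show the opposite order with no overlap.

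The promoter sequences of the called genes are shown because these are the members whose level differed past the test. RefSeq promoter windows on GRCm38.p6 were matched for 58 of the 67 members, among them Epha7 and Ntn4 and not Plxna4. The 250 bases before the RefSeq start are printed 5′ to 3′ on the plus strand, at chr4:28812881-28813130 for Epha7 (the first of 2 listed starts) and chr10:93640799-93641048 for Ntn4, and neither window holds bases of an annotated GENCODE exon of its gene. The Ntn4 window lies inside the GENCODE span of the gene, which begins at 93640681, so it is not upstream of every annotated start. Capitals mark GC boxes, searched as GGGCGG on both strands, with overlapping matches counted.
Epha7: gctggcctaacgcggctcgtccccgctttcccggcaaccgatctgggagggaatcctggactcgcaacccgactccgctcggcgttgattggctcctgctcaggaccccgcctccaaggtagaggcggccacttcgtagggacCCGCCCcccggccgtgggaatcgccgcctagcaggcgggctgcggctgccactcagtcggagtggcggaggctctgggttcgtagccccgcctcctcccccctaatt
Ntn4: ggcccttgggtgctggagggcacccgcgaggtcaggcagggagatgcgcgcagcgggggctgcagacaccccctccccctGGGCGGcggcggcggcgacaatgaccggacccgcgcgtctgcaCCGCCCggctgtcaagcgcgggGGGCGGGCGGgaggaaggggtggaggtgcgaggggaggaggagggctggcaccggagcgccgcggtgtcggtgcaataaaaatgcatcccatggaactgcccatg
The Epha7 window holds 1 GC box and is 69.2% G or C, and the Ntn4 window holds 4, of which 1 pair overlaps, and is 73.2% G or C. Neither holds a TATA box (TATAAA, both strands) or an E-box (CANNTG, which reads the same on both strands). A GC box was found in 32.7% of all 32851 listed promoter windows of this length, a TATA box in 12.4% and an E-box in 66.2%. Among the 74 windows of the 58 members the shares were 71.6%, 2.7% and 47.3%. These matches describe letters only, and binding of any factor was not measured.

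Ephrin ligands did not pass the test in either class. Among 5 ephrin-A genes the median log2 fold change was -0.59, and 3 had negative values. Efna5, the ephrin-A gene with the most counts, measured 29.5, 35.6 and 20.6 CPM in the E14.5 cultures and 50.8, 41.7 and 36.9 CPM in the adult ones. All adult cultures lay above all E14.5 cultures, by 0.59 on the log2 scale in the fit (SE 0.23, adjusted p = 0.252). Efna1, an ephrin known to be induced by inflammatory cytokines, measured 1.03, 2.95 and 2.16 CPM in E14.5 and 7.72, 4.62 and 6.33 CPM in adult cultures. Its groups did not overlap either, with a log2 fold change of -1.60 (SE 0.45, adjusted p = 0.144). Efna2, Efna3 and Efna4 had values of -0.78, 0.54 and 0.06.

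The ephrin-B genes varied as much within groups as between them. Efnb2, which encodes the ephrin that marks arterial endothelium and is also made by mesenchyme, measured 171, 77.3 and 99.0 CPM in E14.5 and 108, 144 and 92.5 CPM in adult cultures. Efnb1, the X-linked ephrin-B gene, measured 70.6, 134 and 33.5 CPM in E14.5 and 145.4, 54.8 and 103.7 CPM in adult cultures. Their log2 fold changes of 0.013 (SE 0.32) and -0.35 (SE 0.56) lay within the spread between cultures. Efnb3 was near the detection limit, at 0.594, 0.279 and 0.525 CPM in E14.5 and 0.681, 0.199 and 0.387 CPM in adult cultures.

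Among EphA receptors, 5 of 9 genes passed the filter, and Epha7 was the 1 past the test. Epha2, the EphA gene with the most counts and a receptor common in epithelial and mesenchymal cells, measured 141, 373 and 67.2 CPM in E14.5 and 194, 128 and 147 CPM in adult cultures. E14.5 replicate 2 was the highest and E14.5 replicate 3 the lowest of all 6, so the groups overlapped fully. The log2 fold change of 0.31 was -0.58 without E14.5 replicate 2. Epha4, a receptor that binds both ephrin classes, measured 107, 139 and 80.9 CPM in E14.5 and 167, 185 and 229 CPM in adult cultures. Here the adult cultures all lay higher, with a log2 fold change of -0.83 (SE 0.23, adjusted p = 0.140). Thus Epha4 and Epha7, within 1 family, had opposite signs. Epha1 and Epha3 had values of -0.63 and -0.0074. Epha5, Epha6, Epha8 and Epha10 had at most 5 counts in any library, and Epha8 had 0 counts in all 6, which allows up to 0.0927 to 0.149 CPM.

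EphB receptor genes had values of 0.18 or below, and 4 of 5 were negative, with a median of -0.68. Ephb4, the receptor that pairs with ephrin-B2 in veins, measured 67.4, 44.8 and 52.8 CPM in E14.5 and 76.02, 107.8 and 80.33 CPM in adult cultures. The groups did not overlap (log2 fold change -0.68, SE 0.21, adjusted p = 0.161). Adult replicate 2, the highest of the 6, was also the library with the most endothelial marker RNA, whose part was not tested. Ephb1 had 2, 1 and 0 counts in E14.5 and 18, 64 and 26 counts in adult libraries. Its pooled rate was 46.4 times higher in adult cultures, with an exact Poisson 95% interval of 15.4 to 228 that covers counting error only. The fitted log2 fold change of -5.48 (SE 1.04) had an adjusted p of 0.077 and depends on the handling of these low counts. Ephb2, Ephb3 and Ephb6 had values of -0.13, 0.18 and -0.84.

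Class 3 semaphorins did not move in a common direction: of 6 tested genes 3 had positive and 3 negative values, and 0 passed the test (2, or 33.3%, at an unadjusted p under 0.05, against 17.9% of all tested genes). Sema3a, a secreted repellent that acts through neuropilin-1, measured 353, 339 and 333 CPM in E14.5 and 194, 257 and 260 CPM in adult cultures. The E14.5 cultures were nearly equal and all above the adult ones, with a log2 fold change of 0.53 (SE 0.14, adjusted p = 0.139). Sema3e, which signals through plexin-D1 without needing a neuropilin, measured 87.4, 287 and 76.1 CPM in E14.5 and 55.5, 67.4 and 60.05 CPM in adult cultures. The groups did not overlap, but the fitted value of 1.30 (SE 0.52) was 0.42 without E14.5 replicate 2, the highest library. Sema3d measured 44.2, 176 and 44.8 CPM in E14.5 and 230, 251 and 173 CPM in adult cultures. E14.5 replicate 2 again stood apart from the other 2 embryonic cultures, this time at the adult level. The log2 fold change of Sema3d was -1.30 (SE 0.58, adjusted p = 0.314) and, without that library, -2.29 (adjusted p = 0.016). E14.5 replicate 2 was likewise the library whose mesothelial markers lay with the adult ones, and the part of this in the result was not tested. Sema3b, Sema3c and Sema3f had values of -0.35, 0.29 and -1.16.

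Semaphorins of classes 4 to 7, which are membrane proteins, held 12 tested genes, of which 7 had positive and 5 negative values and 0 passed the test (4, or 33.3%, at an unadjusted p under 0.05, against the same 17.9%). Sema4d, a semaphorin known from lymphocytes and macrophages that binds plexin-B1 and, on leukocytes, CD72, measured 6.54, 9.06 and 38.6 CPM in E14.5 and 2.27, 1.19 and 1.05 CPM in adult cultures. All embryonic values lay higher, and E14.5 replicate 3 was far above the rest (log2 fold change 3.58, SE 0.81, adjusted p = 0.104). Sema6a, a ligand of plexin-A2 and plexin-A4, measured 20.4, 3.10 and 15.2 CPM in E14.5 and 2.69, 2.43 and 0.949 CPM in adult cultures. E14.5 replicate 2 lay just above the adult range, and the fitted value of 2.67 (SE 0.76, adjusted p = 0.148) was 3.14 without it (adjusted p = 0.039). Sema4f had 41, 23 and 41 counts in E14.5 and 2, 5 and 4 in adult libraries, a log2 fold change of 2.82 (SE 0.55, adjusted p = 0.083). Sema7a, a lipid-anchored semaphorin that binds integrin beta 1 and plexin-C1, measured 6.54, 8.47 and 13.6 CPM in E14.5 and 46.9, 8.145 and 66.7 CPM in adult cultures. Adult replicate 2 fell among the embryonic values, so the groups overlapped (log2 fold change -2.09, SE 0.73, adjusted p = 0.214). The other tested members (Sema4a, Sema4b, Sema4c, Sema4g, Sema5a, Sema6b, Sema6c and Sema6d) had values between -0.92 and 0.80.

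Plexins are the signalling receptors for semaphorins, and the values of the most abundant ones lay near 0. Plxna1 measured 629, 402 and 491 CPM in E14.5 and 452, 460 and 461 CPM in adult cultures. The adult cultures were almost equal and lay inside the embryonic range (log2 fold change 0.15, SE 0.18). Plxnb2 had a value of -0.26 (SE 0.14). Plxnc1, the receptor for semaphorin 7A, measured 3.72, 6.24 and 40.1 CPM in E14.5 and 1.17, 0.844 and 0.352 CPM in adult cultures. As with Sema4d, all embryonic cultures lay higher and E14.5 replicate 3 was the highest (log2 fold change 4.40, SE 1.09, adjusted p = 0.121). Plxna2 measured 13.8, 16.6 and 20.8 CPM in E14.5 and 15.4, 106 and 34.8 CPM in adult cultures, a fitted value of -1.61 (SE 0.67, adjusted p = 0.286). Its 2 highest libraries were adult replicates 2 and 3, and Plxna2 is described outside the rule for named genes because of that order. Plxna3, Plxnb1 and Plxnd1 had values of 0.38, -0.066 and -0.20, and Plxnb3 had 25, 2 and 37 counts in E14.5 and 0, 2 and 1 in adult libraries, below the filter.

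Both neuropilin genes had higher values in E14.5 cultures, and neither passed the test. Nrp1, the co-receptor for semaphorin 3A and for VEGF-A, measured 392.2, 199.8 and 287.8 CPM in E14.5 and 140, 157 and 146 CPM in adult cultures. The groups did not overlap, with a log2 fold change of 0.99 (SE 0.25, adjusted p = 0.121). It passed without E14.5 replicate 2 (1.20, adjusted p = 0.030). Nrp2, which prefers semaphorins 3C and 3F, measured 222, 97 and 167 CPM in E14.5 and 46.7, 119 and 42.2 CPM in adult cultures. Adult replicate 2 lay above E14.5 replicate 2, so the groups overlapped, with a fitted value of 1.23 (SE 0.49, adjusted p = 0.269). Within prefixes the Nrp2 difference was 2.25, -0.30 and 1.98, and without adult replicate 2 the fitted value was 1.86 (adjusted p = 0.139). Summed over both genes, neuropilin RNA came to 614, 297 and 455 CPM in E14.5 and 187, 276 and 188 CPM in adult cultures. These sums did not overlap, but E14.5 replicate 2 and adult replicate 2 were close (297 and 276 CPM). The pericyte marker sum was also highest in E14.5 replicate 1 (297.7, 30.2 and 106 CPM, against 76.1 to 88.7 CPM for adult), mostly through Rgs5 (240.4, 15.7 and 72.9 CPM). Cspg4 of the same list had the opposite sign, at 19.1, 2.545 and 10.1 CPM in the embryonic cultures against 46.3 to 67.2 CPM. Of the 5 pericyte markers 3 had positive and 2 negative values, and their part in the neuropilin values was not tested.

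**Figure D3:**
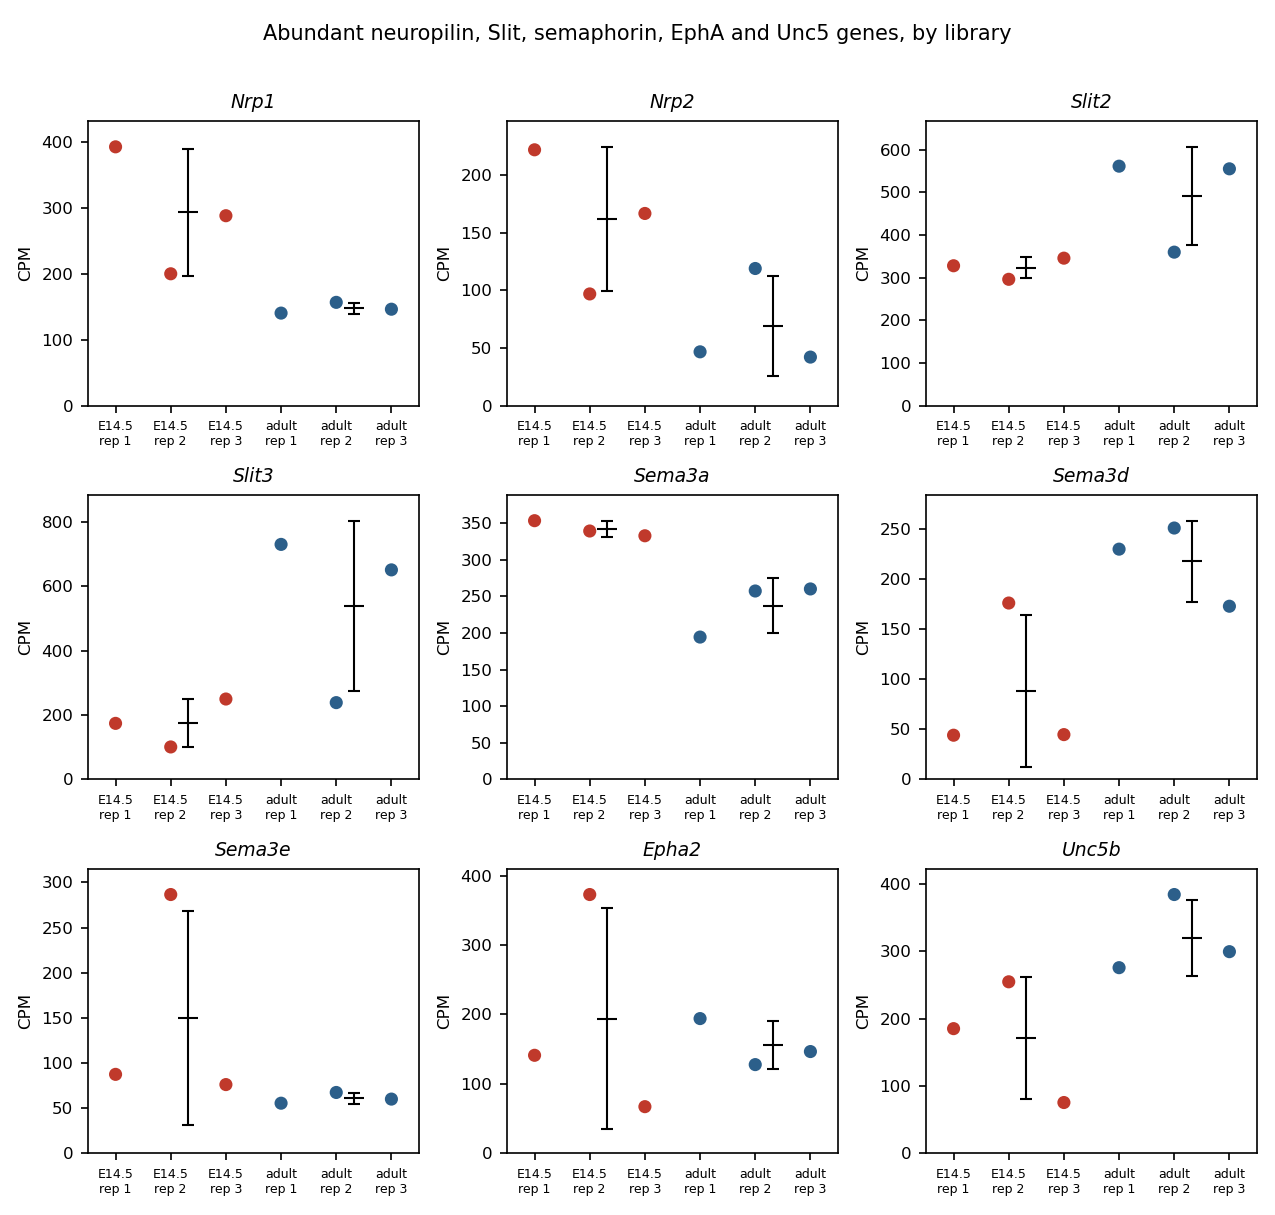
CPM by library is plotted for 9 abundant members, with each group's mean as a tick and its SD as the error bar. Nrp1 and Sema3a lie higher in all 3 E14.5 cultures, Slit2 and Unc5b in all 3 adult cultures, and E14.5 replicate 2 stands apart in Sema3d, Sema3e and Epha2.

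Slit ligands were abundant in adult cultures, and their Robo receptors were scarce in both groups. Slit3 measured 174, 101 and 250 CPM in E14.5 and 731, 239 and 652 CPM in adult cultures. Adult replicate 2 lay within the embryonic range, and the log2 fold change of -1.63 (SE 0.50) did not pass the test (adjusted p = 0.171). Slit2 measured 328, 296 and 346 CPM in E14.5 and 562, 360 and 555 CPM in adult cultures. All adult values were higher, though adult replicate 2 only slightly (log2 fold change -0.61, SE 0.20, adjusted p = 0.185). Slit RNA of all 3 genes came to 503, 398 and 597 CPM in E14.5 and 1293, 599 and 1207 CPM in adult cultures, so the nearest libraries of the groups were almost equal. Slit1 had at most 38 counts in any library.

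Robo1, the Robo gene with the most counts, had levels of 57.3, 16.2 and 32.2 CPM in E14.5 and 18.7, 31.0 and 18 CPM in adult cultures, which overlapped (log2 fold change 0.64, SE 0.47, adjusted p = 0.562). Its value was 0.09 without E14.5 replicate 1, and the prefix-wise differences were 1.61, -0.94 and 0.84. Robo2 measured 2.38, 3.6 and 1.98 CPM in E14.5 and 1.82, 0.894 and 0.527 CPM in adult cultures. Its groups did not overlap, with a log2 fold change of 1.29 (SE 0.54, adjusted p = 0.283). Robo3 had a value of -0.29.

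Netrin RNA in these cultures was mostly Ntn4. The sum over 4 netrin genes was 89.5, 77.8 and 96.1 CPM in E14.5 and 257, 197 and 302 CPM in adult cultures. Ntn1, the gene for the classical long-range axon cue, had a value of -0.13 (SE 0.26). Ntn3 measured 3.88, 4.62 and 3.46 CPM in E14.5 and 4.58, 5.26 and 4.36 CPM in adult cultures, within the spread (log2 fold change -0.25, SE 0.26). Ntn5 had 0 counts in all 6 libraries.

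All 3 tested Unc5 receptor genes had negative values, with none past the test. Unc5b, a netrin receptor best known from endothelium, measured 185, 255 and 75.5 CPM in E14.5 and 276, 385 and 299.7 CPM in adult cultures. Every adult culture lay higher, and the highest was adult replicate 2 (log2 fold change -0.90, SE 0.43, adjusted p = 0.345). Its value was -0.68 when the libraries with most endothelial RNA, adult replicates 2 and 3, were left out. Without 1 embryonic library it was -0.95 (E14.5 replicate 1), -1.29 (E14.5 replicate 2) or -0.54 (E14.5 replicate 3). It was -0.39 when E14.5 replicate 3 and adult replicate 2 were dropped. The part of endothelial RNA in the Unc5b value was not tested. Unc5a measured 0.688, 0.466 and 1.11 CPM in E14.5 and 1.63, 2.14 and 1.125 CPM in adult cultures, with E14.5 replicate 3 and adult replicate 3 nearly equal (log2 fold change -1.10, SE 0.47). Unc5c had a value of -0.25, and Unc5d had at most 6 counts in any library.

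Levels can be compared between genes only per transcript length, for which CPM was divided by the length in kilobases of all annotated exons of the gene joined together (GENCODE M21, all 67 members matched). On this scale Plxna1 (56.0 ± 12.6 CPM per kilobase), Plxnb2 (46.0 ± 5.14) and Epha2 (41.5 ± 34.1) led the members in E14.5 cultures, and the mean ± SD ranges of these 3 overlapped (n = 3). The place of Epha2 rests on E14.5 replicate 2, its highest library by far. Slit3 (89.1 ± 43.5), Ntn4 (63.1 ± 13.5), Plxnb2 (55.05 ± 4.85), Unc5b (51.2 ± 9.13) and Plxna1 (50.6 ± 0.564) led in adult cultures, and the ranges of neighbours in this order overlapped. Ntn4 measured 19.7 ± 2.24 CPM per kilobase in E14.5 cultures. Epha7 measured 2.71 ± 0.713 in E14.5 and 0.366 ± 0.146 CPM per kilobase in adult cultures, below Epha2 and Epha4 in both. Plxna4 measured 0.430 ± 0.164 and 2.03 ± 0.399 CPM per kilobase, below Plxna1 in both. The 2 called receptors were therefore minor members of their families by level, and Ntn4 was the leading netrin. Which annotation the deposited counts used is not known here, so these lengths may differ from the counted ones.

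As a set, the 58 tested members had a median log2 fold change of -0.17, against 0.013 over all tested genes, with 25 positive and 33 negative values. The median size of the change, ignoring sign, was 0.65 against 0.23. The groups did not overlap for 22 members, or 37.9%, 11 higher and 11 lower in E14.5, where all tested genes gave 24.1% (12.1% higher and 12% lower). An unadjusted p under 0.05 was found for 20 members, or 34.5%, against 17.9% of all tested genes. For 18 members, or 31%, the groups differed 2-fold or more, against 14.2%. Ligand genes (32 tested) and receptor genes (26 tested) had medians of -0.19 and -0.17. These shares describe the members and are not a test of the list. DESeq2 called 14 of the 58, against 10.6% of all genes: Epha7, Nrp1, Plxnc1, Sema3a, Sema4d, Sema4f and Sema6a higher, and Efna1, Epha4, Ephb1, Ntn4, Plxna4, Sema7a and Slit3 lower in E14.5. Without E14.5 replicate 2, edgeR called 7 members (Epha7, Nrp1, Sema4c and Sema6a higher, Ntn4, Sema3d and Sema3f lower), against 3.42% of all genes.

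The other genes of these pathways were read from lists of further ligands, receptors and cytoplasmic effectors. Of 82 tested genes, 1 rose and 1 fell (2.44%, against 1.08% of all tested genes). Slitrk5, which encodes a neuronal-type membrane protein whose extracellular repeats resemble those of Slit, rose from 0.303, 0.248 and 0.457 CPM in adult to 6.13, 4.84 and 2.32 CPM in E14.5 cultures. The groups were far apart (log2 fold change 3.69, SE 0.52, edgeR adjusted p = 0.041). Dpysl5, a gene of the collapsin response mediator family that acts below semaphorin receptors, fell from 3.82, 2.63 and 1.83 CPM in adult to 0.0938, 0.248 and 0.0618 CPM in E14.5 cultures (log2 fold change -4.31, SE 0.63, edgeR adjusted p = 0.041). It was close to the detection limit in the E14.5 libraries. Both calls held without E14.5 replicate 2, and Slitrk5 also without E14.5 replicate 3 (adjusted p = 0.034). They were lost without E14.5 replicate 1 or any 1 adult library (0.098 to 0.184), as was that of Dpysl5 without E14.5 replicate 3 (0.080) and that of Slitrk5 with limma-voom (0.081).

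Of the further receptors, 17 were tested and 0 passed (8 at an unadjusted p under 0.05, against 17.9% of all tested genes, and 6 called by DESeq2, against 10.6%). Neo1, which encodes neogenin, which binds netrins and RGM proteins, measured 134, 79.5 and 136 CPM in E14.5 and 296, 188 and 237 CPM in adult cultures. The groups did not overlap (log2 fold change -1.05, SE 0.27, adjusted p = 0.126), and the value had the same sign as that of Ntn4. Binding between the proteins of these genes was not measured. Dcc, the gene for the other attractive netrin receptor, did not exceed 1.37 CPM and was below the filter. L1cam, an adhesion protein that joins neuropilin-1 in semaphorin 3A reception, measured 3.596, 0.590 and 2.10 CPM in E14.5 and 0.0757, 0.199 and 0.0703 CPM in adult cultures (log2 fold change 4.20, SE 0.86, adjusted p = 0.091).

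Of the further ligands, 12 were tested, with Slitrk5 the 1 called (8.33%, against 1.08% of all tested genes). Dag1, which encodes dystroglycan, a matrix receptor that also binds Slit, measured 237, 434 and 213 CPM in E14.5 and 993, 337 and 806 CPM in adult cultures, and the groups overlapped through adult replicate 2. Of 53 tested effectors, Dpysl5 was the 1 called (1.89%, near the same 1.08%). Srgap3, which encodes a Slit-Robo GTPase-activating protein, measured 18.1, 21.8 and 19.3 CPM in E14.5 and 33.7, 43.3 and 55.0 CPM in adult cultures (log2 fold change -1.16, SE 0.20, adjusted p = 0.064).

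Some of the larger differences are set here beside markers of other cell types. Sema4d and Plxnc1 followed the order of the macrophage and leukocyte marker sum in the E14.5 libraries, with 38.6 and 40.1 CPM in E14.5 replicate 3, where that sum was 2938 CPM. Among adult libraries both genes and the sum were highest in adult replicate 1. Both genes were lowest in adult replicate 3 (1.05 and 0.352 CPM), but the sum was lowest in adult replicate 2 (25.6 CPM, against 53.5 in adult replicate 3). All 12 tested markers of that list had positive log2 fold changes, 11 of them without overlap between the groups (12.1% of all tested genes were higher without overlap) and 0 past the test, and none of the 12 was at 0 in any library. Cd72, the leukocyte receptor for Sema4d, measured 3.38, 4.25 and 16.4 CPM in E14.5 and 1.63, 0.149 and 0.387 CPM in adult cultures. Without E14.5 replicate 3 the log2 fold change was 2.37 for Sema4d and 2.66 for Plxnc1, against 3.58 and 4.40 with it. The part of leukocyte RNA in these differences was not tested. Plxna2 and Nrp2 were highest among adult libraries in adult replicate 2, at 106 and 119 CPM, where the endothelial sum was 1927 CPM. Plxna2 was chosen because of that order, so its order is no result. Nrp2 was lowest of all 6 libraries in adult replicate 3 (42.2 CPM), where the endothelial sum was 414 CPM. It was higher in E14.5 replicates 1 and 3 (222 and 167 CPM), where that sum was 35.1 and 21.4 CPM. Of the endothelial list 9 of 11 tested markers had negative values, 5 without overlap (12% of all tested genes were lower without overlap), and Cldn5 was at 0 in all E14.5 libraries and Tie1 in E14.5 replicates 1 and 2. The endothelial Robo receptor Robo4 was at 0 in all E14.5 libraries and measured 0.0757, 3.82 and 1.23 CPM in the adult ones. The part of endothelial RNA was not tested. Enteric glia and neurons also use these cues. Their marker sums were 219 to 279 CPM for E14.5 and 237 to 315 CPM for adult. Uchl1 alone gave 157, 263 and 208 CPM in E14.5 and 157, 93.9 and 220 CPM in adult cultures. Of 7 tested markers 3 had positive and 4 negative values. Tubb3 (log2 fold change -1.6) and Ret (-1.5) were lower without overlap, 28.6% of those tested against 12% of all tested genes. The glial gene Sox10, below the filter, was at 3.91, 0 and 2.41 CPM in E14.5 and at most 0.0497 CPM in adult libraries.

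**Figure D4:**
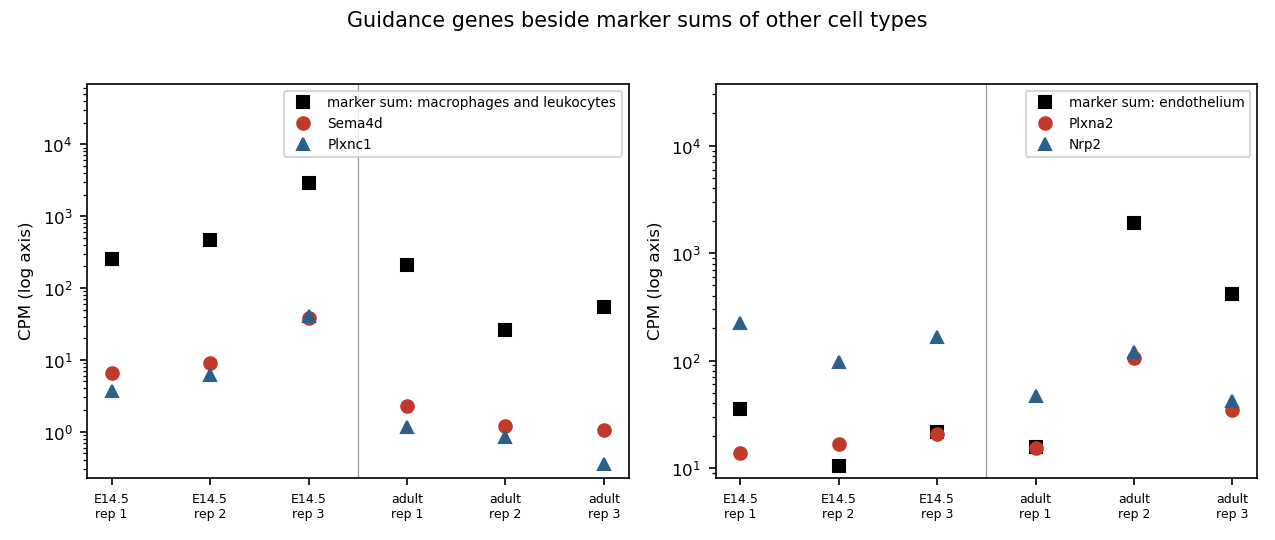
CPM on a log axis is plotted by library for Sema4d and Plxnc1 beside the summed macrophage and leukocyte markers (left), and for Plxna2 and Nrp2 beside the summed endothelial markers (right). E14.5 replicate 3 is highest in all 3 series on the left, and adult replicate 2 is the highest library for Plxna2 and for the endothelial sum on the right. Plxna2 was chosen because of that order, and Nrp2 is highest in E14.5 replicate 1.

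The 3 called genes can be set beside the same markers. Epha7 was highest in E14.5 replicate 1, Ntn4 lowest in E14.5 replicate 2 and highest in adult replicate 3, and Plxna4 highest in adult replicate 2. When the libraries richest in endothelial and in leukocyte marker RNA were both left out (adult replicate 2, E14.5 replicate 3), the log2 fold change was 2.91 for Epha7, -1.92 for Ntn4 and -2.40 for Plxna4, against 2.89, -1.68 and -2.24 with all 6 libraries. In that fit Ntn4 kept its call (adjusted p = 0.0495) and the other 2 did not (0.134 and 0.081). Pdgfra, like Ntn4 and Plxna4, was lower in every E14.5 culture, and like Plxna4 it was highest in adult replicate 2. The mesenchymal list as a whole had another order. Its sum was 22240, 12710 and 24570 CPM in E14.5 and 20740, 12490 and 21290 CPM in adult cultures, lowest in adult replicate 2. Of its 9 genes 7 had negative and 2 positive values, among the latter Col1a1 (log2 fold change 0.85). Of 8 mesothelial markers 7 had negative values, 1 of them without overlap (12.5%, near the 12% of all tested genes that were lower without overlap). The part of these markers' cells in the 3 calls was not tested.

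**Figure D5:**
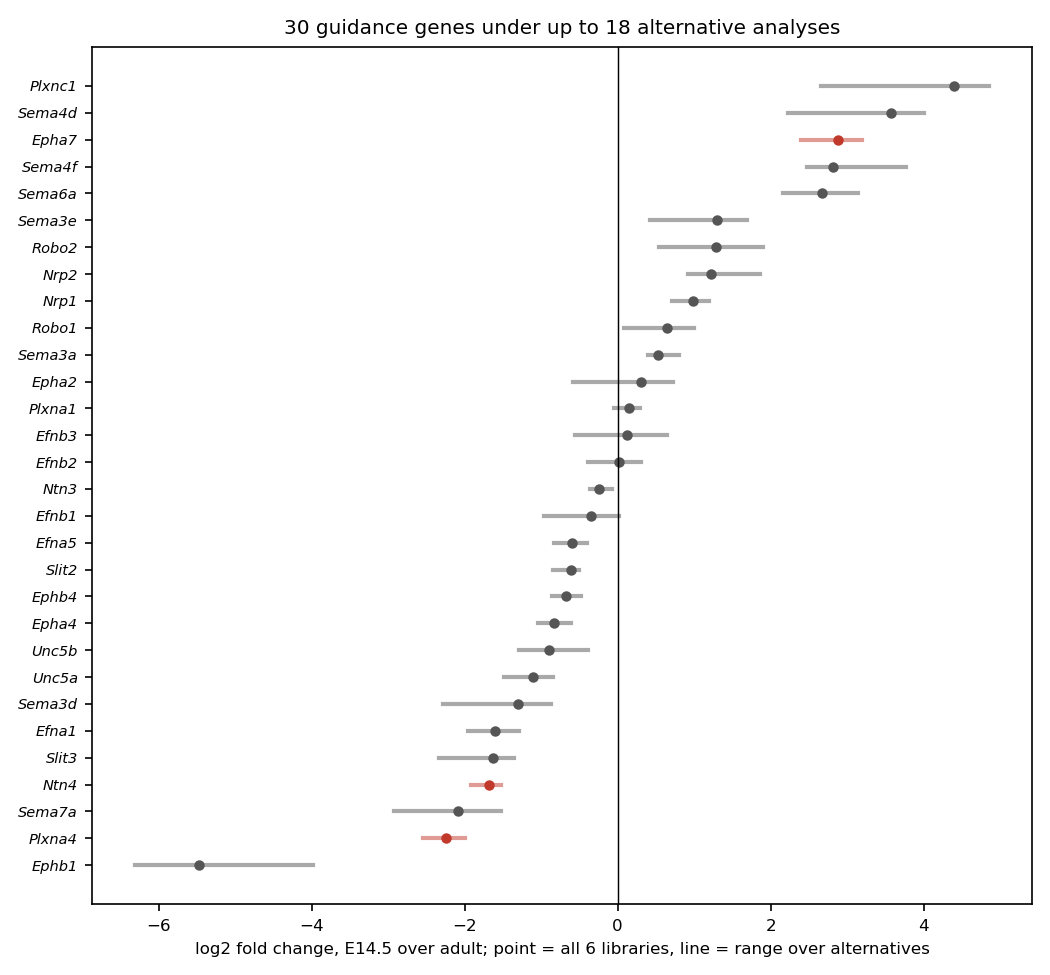
The log2 fold change with all 6 libraries (point) and its range over the alternative analyses (line) are plotted for 30 guidance genes. The lines of Epha7 (2.40 to 3.20), Ntn4 (-1.92 to -1.53) and Plxna4 (-2.55 to -2.00) stay on 1 side of 0, and those of Epha2, Plxna1 and the 3 ephrin-B genes cross it.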

How the data were processed

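Each library has 1 table of raw read counts by gene, as deposited by the authors, counted without strand and on either strand. STAR and mm10 are named per the submitters' processing notes. Version and annotation: not given in the sources used here. Only the reverse-strand column was used, since forward-strand counts made up 1.33% to 1.69% of stranded gene counts. Lines that name no gene (17.45% to 19.81% of reads) were excluded.

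Genes were kept by filterByExpr, scaled by TMM and tested in R 4.3.3 with edgeR 4.0.16 (robust quasi-likelihood test, Benjamini-Hochberg adjustment over all tested genes, threshold 0.05). The SE of a log2 fold change was approximated as the log2 fold change over the root of the F statistic. The steps were tested on simulated data. Groups came from the stage label, and replicates were numbered in accession order. Alternatives used DESeq2 1.42.0, limma-voom (limma 3.58.1), other scalings and filters, an adjusted p of 0.01, the unstranded column, the title prefix as a block, and fits without 1 or 2 libraries. Named members were those past the test, in each family the 2 lowest p, the largest change and the highest CPM, and those without overlap and at least 2-fold changed; from the pathway lists, those past the test and the 2 lowest p in each. The members and lists were chosen with earlier results of these data known.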

Additional observations from a re-analysis of the deposited data

How the results depend on the processing

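The count of guidance genes past the test, 3 with all 6 libraries, was 14 with DESeq2, 0 at an adjusted p of 0.01, 0 when adult replicates 2 and 3 were both dropped, and 1 when adult replicate 2 was dropped together with E14.5 replicate 3. Dropping any 1 library gave 0 to 7, with 15 to 28 members at an unadjusted p under 0.05. For the 82 other pathway genes, 2 with all libraries, these counts were 13, 0, 0 and 0, with 1 in limma-voom and 0 to 7 when 1 library was dropped. Over all genes, 146 became 1427, 2, 0 and 36, and 3 to 471 when 1 library was dropped. With the title prefix as a replicate block, 0 guidance genes (19 at an unadjusted p under 0.05), 0 other pathway genes and 2 genes overall passed. The block ended the calls of Epha7 (adjusted p = 0.094), Ntn4 (0.094) and Plxna4 (0.141). The labels do not say what the prefix marks, and a shared preparation was not tested. Deviations of same-prefix libraries from their group means correlated at -0.14, -0.23 and -0.09, none of them positive. A lone adult library was assumed to vary like the E14.5 ones. Signs changed for 5 genes that were not called. Limma-voom and the block turned Epha2 (-0.012 and -0.043) and Efnb2 (-0.046 and -0.041). Dropping 1 library gave a log2 fold change from -0.58 to 0.72 for Epha2, -0.39 to 0.235 for Efnb2, -0.195 to 0.64 for Efnb3, -0.045 to 0.29 for Plxna1 and -0.96 to 0.016 for Efnb1. Dropping adult replicates 2 and 3 gave -0.00045 for Epha2 and -0.55 for Efnb3, and dropping the other pair gave -0.29 for Efnb3 and 0.30 for Efnb2. The cause was not tested. The other 25 named members and 6 pathway genes kept their sign wherever they were fitted. Depth limits Ephb1, Sema4f and Efnb3, with few counts in at least 1 group.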
